A study of Mus musculus with 4 samples.

Results

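Long genes with accessible chromatin at both of their annotated ends were rare in mouse hair follicle stem cells. The start peak was the wider of the pair in 152 of the 187 such genes whose strand was known. The genes were chosen as RefSeq protein-coding genes of 20 kb or longer on chromosomes 1 to 19 that had no other annotated gene bound within 2 kb of either of their own bounds, and a peak overlapping the window of 1 kb either side of each bound. Of 5159 long isolated genes, 245 met this rule, or 4.75% (exact 95% interval 4.18 to 5.37%), out of 20665 protein-coding genes on those chromosomes. Their end windows held 545 of the 74777 peaks in the list, and 0 of these peaks were counted for 2 genes. Because the presence of peaks chose these genes, that count is a description and carries no test.

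Accessible regions were mapped by ATAC-seq, in which the Tn5 transposase inserts adapters into open DNA, in hair follicle stem cells from back skin of female mice at postnatal day 30. The cells were sorted by flow cytometry as H2BGFP(+), Sca-1(-), CD34(+) and CD49f(+). The knockout carried K14-H2BGFP, K14Cre and Foxc1 fl/fl, and the control carried K14-H2BGFP and Foxc1 fl/fl without the Cre, so both genotypes shared the reporter and the floxed alleles. The K14 promoter of the keratin 14 gene is active across the basal skin epithelium and is not particular to stem cells. Each genotype was 1 library sequenced in 2 runs, and how many animals gave each library was not given in the labels. The data were 1 list of peaks for all 4 runs, with coordinates and no score, read count or genotype. Values could therefore not be given by genotype or by run, there was no replicate error, and the depth behind a peak is unknown. Genes and peaks of 1 list are not replicates, so the differences below are descriptions without a p-value, and intervals cover counting error only. All 8 markers chosen for hair follicle stem cells (Cd34, Krt15, Sox9, Lhx2, Nfatc1, Tcf7l1, Lgr5 and Itga6) had a peak within 1 kb of a gene bound. Among 4 markers each of other skin cells, 3 of melanocytes (Mitf, Dct and Pmel), 2 of endothelium (Kdr and Tek), 1 of immune cells (Csf1r) and 1 of fibroblasts (Col1a1) had one as well. Such a peak was present in 62.8% of all long isolated genes, a class that does not hold all of these markers. Of the 13 long isolated genes in the stem cell list used below, 2 (Dkk3 and Runx1) had none. A region open in few cells and a region weakly open in many cannot be told apart in such a list.

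Hair follicle stem cells reside in the bulge of the follicle and rebuild its lower part in each hair cycle. In active genes the promoter at the start is depleted of nucleosomes and open to Tn5, and enhancers are open too. The far end is where the transcript is cleaved and polyadenylated. The strand of a gene, and with it which bound is the start, was known for the genes in the RefSeq promoter table (GRCm38.p6), which were 4062 of the 5159 long isolated genes and 187 of the 245 genes open at both ends. The other 58 are described by the wider and the narrower of their end peaks. Start here means the gene bound on the start side. A listed transcription start lay within 1 kb of that bound in 173 of the 187.

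The promoters of the genes with the widest far end peaks are shown first, chosen by that width alone. Emp1, Gm15319 and Cwc22 are among the 9 genes covered by peaks over 50% or more of their length. The set therefore does not stand for all genes open at both ends. Each is the 250 bases before the start listed nearest to the gene bound, from RefSeq on GRCm38.p6, in the direction of transcription. Capitals mark matches, on either strand, to a CCAAT box (CCAAT), a GC box (GGGCGG), an AP-1 site (TGANTCA) or a forkhead site (TGTTTAC).
Emp1, chr6:135362681-135362930, plus strand: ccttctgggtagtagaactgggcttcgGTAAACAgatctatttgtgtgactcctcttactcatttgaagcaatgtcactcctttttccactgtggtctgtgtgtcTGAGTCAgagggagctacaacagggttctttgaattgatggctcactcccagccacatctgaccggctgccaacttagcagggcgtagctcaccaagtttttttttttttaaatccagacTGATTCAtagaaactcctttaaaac
Zdhhc18, chr4:133633430-133633679, minus strand: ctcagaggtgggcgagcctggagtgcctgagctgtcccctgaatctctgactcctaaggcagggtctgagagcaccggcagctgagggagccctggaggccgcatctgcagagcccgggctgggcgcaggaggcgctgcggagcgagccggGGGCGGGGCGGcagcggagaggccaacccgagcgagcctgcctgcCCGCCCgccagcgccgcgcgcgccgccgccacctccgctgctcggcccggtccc
Zswim4, chr8:84237043-84237292, minus strand: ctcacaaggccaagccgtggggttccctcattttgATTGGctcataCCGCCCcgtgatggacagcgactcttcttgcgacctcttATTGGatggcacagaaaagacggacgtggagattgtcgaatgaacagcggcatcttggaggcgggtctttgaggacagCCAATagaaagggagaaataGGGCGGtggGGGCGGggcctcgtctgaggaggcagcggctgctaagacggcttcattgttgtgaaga
Gm15319, chr8:20363203-20363452, minus strand: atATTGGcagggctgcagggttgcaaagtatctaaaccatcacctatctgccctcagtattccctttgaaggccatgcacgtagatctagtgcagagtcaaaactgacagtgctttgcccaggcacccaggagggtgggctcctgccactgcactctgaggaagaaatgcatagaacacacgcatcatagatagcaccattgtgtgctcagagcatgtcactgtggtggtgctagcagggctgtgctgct
Cwc22, chr2:77946357-77946606, minus strand: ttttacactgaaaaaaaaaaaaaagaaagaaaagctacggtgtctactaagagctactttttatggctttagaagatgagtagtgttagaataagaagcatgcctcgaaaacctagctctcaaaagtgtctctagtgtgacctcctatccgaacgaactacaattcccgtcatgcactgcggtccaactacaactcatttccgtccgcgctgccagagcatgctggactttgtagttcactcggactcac
The Emp1 promoter held 2 AP-1 matches and 1 forkhead match at 44.4% G and C, and all 250 bases lay inside its start peak. The Zdhhc18 promoter held 3 GC boxes at 75.6% G and C, and 0 of its bases lay in a peak, since the start peak of that gene began further inside the gene. Zswim4 had 3 CCAAT boxes and 3 GC boxes, and the Cwc22 window held none of the motifs searched. The promoter of Gm21119, which followed Zswim4 in the order of far end peak width, was identical to that of Gm15319, with 0 differing bases of 250.

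Accessibility of the far end was uncommon whether or not the start was open. Among the 4062 genes of known strand, the start had a peak in 2476 (61.0%) and the far end in 269 (6.62%). Both ends had one in 187, only the start in 2289, only the far end in 82 and neither in 1504. Over all 5159 long isolated genes, strand known or not, 1 end was open in 2994 (58.0%) and neither in 1920 (37.2%). The far end was open in 7.55% of genes with an open start (exact 95% interval 6.54 to 8.66%) and in 5.17% of genes without (4.13 to 6.38%). The product of the shares at the start and at the far end would give 164 genes open at both. Both shares use the same peaks that chose the genes and are given as a description. The share of windows of this size placed elsewhere that hold a peak is not given here. The far end share therefore does not set far ends apart from other ground.

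The share of genes open at both ends varied little with gene length. It was 5.04% among genes of 20 to 50 kb (123 of 2439), 4.06% among those of 50 to 100 kb (53 of 1306), 5.38% among those of 100 to 200 kb (43 of 799) and 4.23% among those of 200 kb and over (26 of 615). The 95% intervals of all 4 classes overlapped. The median length was 49.7 kb for genes open at both ends, against 54.8 kb for genes open at 1 end and 51.0 kb for genes open at neither. Chromosomes 1, 3 and 4, the ones with at least 20 of these genes, held 64 of the 245. The share of their long isolated genes open at both ends was 5.04%, 7.12% and 6.45%, beside 4.75% over all long isolated genes. The share ran between 1.60% on chromosome 12 (3 of 188) and 7.12% on chromosome 3 (21 of 295).

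**Figure D1:**
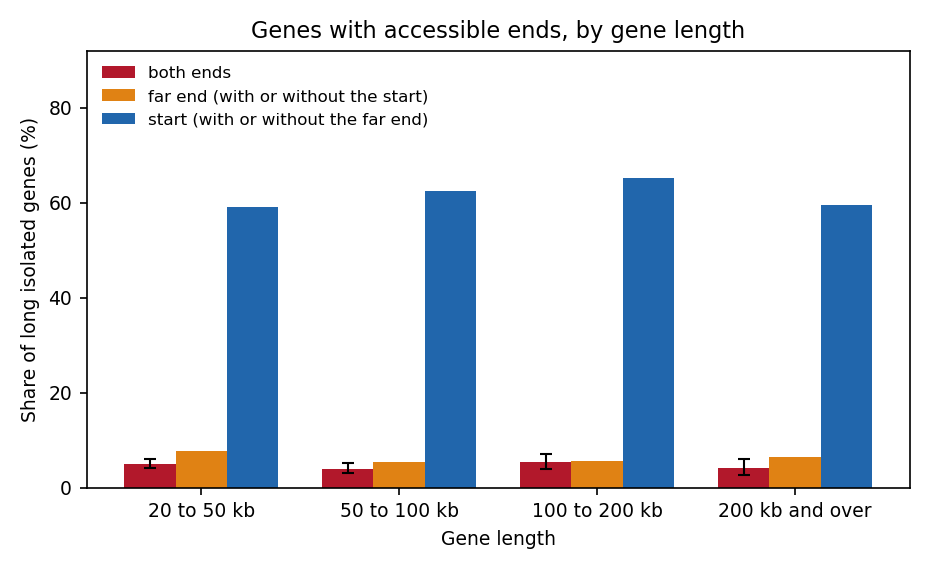
Share of long isolated genes (y axis, %) with a peak at both ends, at the far end or at the start, in 4 classes of gene length (x axis). Error bars on the bars for both ends are exact 95% binomial intervals, and far end and start shares use genes of known strand. Both-end shares lie between 4.06% and 5.38% while start shares lie between 59.1% and 65.2%.

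The start peak was the wider of the pair in 152 of 187 genes (81.3%), and the far end peak in 35. The widest start peak had a median width of 1544 bp (quartiles 999 and 2037.5 bp), and the widest far end peak a median of 615 bp (quartiles 383.5 and 1130 bp). Over all peaks on chromosomes 1 to 19 the median was 594 bp, so far end peaks were close to the typical width of the list. The start peak was at least 2 times as wide in 96 genes and the far end peak in 8. A width of 1000 bp or more was reached by 140 start peaks and 58 far end peaks, and by both in 48 genes. At the other extreme, 14 far end peaks and 2 start peaks had the smallest width in the list, 200 bp. Among the 58 genes of unknown strand the wider end peak had a median of 1405 bp and the narrower 543.5 bp, beside 1619 bp and 588 bp for the same measures in the 187.

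Start peaks of these genes were somewhat wider than start peaks of genes open only there, whose median was 1329 bp (quartiles 931 and 1824 bp). Far end peaks had about the same width as in the 82 genes open only at the far end, whose median was 601 bp. Width bears on the rule, since a wide peak reaches a window more easily. Across the 187 genes the widths of the start and far end peaks, on a log2 scale, had a Pearson r of 0.27 and a Spearman coefficient of 0.16, given as a description over genes that share 1 peak list. One end window usually held 1 peak. More than 1 peak lay at the start in 19 genes and at the far end in 16, and 197 of all 245 genes had exactly 1 peak at each end.

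**Figure D2:**
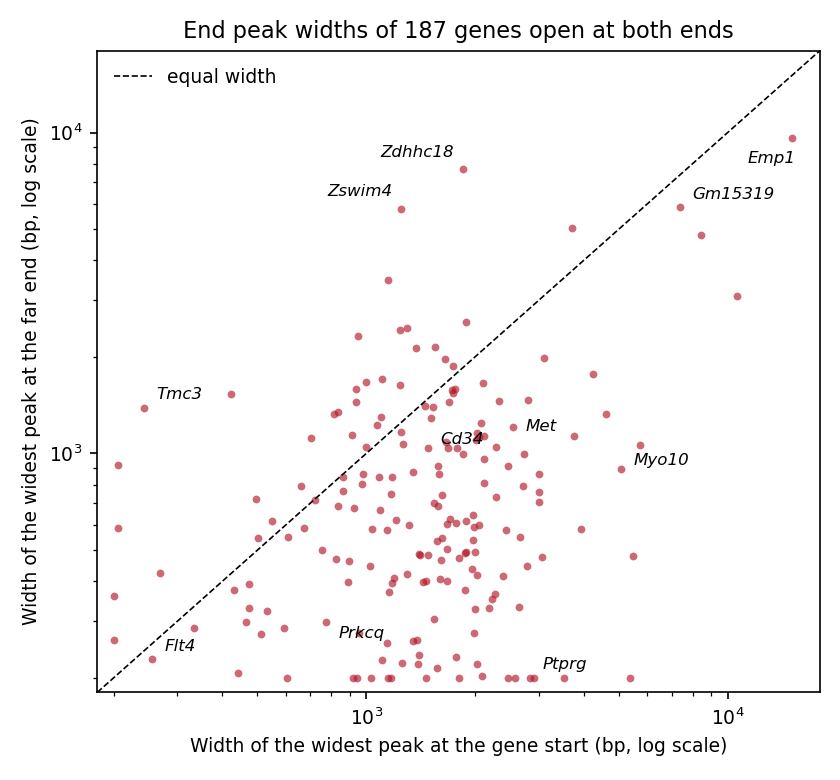
Width of the widest peak at the start (x axis, bp, log scale) against the far end (y axis, bp, log scale) for the 187 genes of known strand, 1 point per gene, with the line of equal width dashed. Most points lie below the line, as the start peak was wider in 152 genes.

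The position of the peak also differed between the ends. A start peak covered the annotated bound itself in 158 of 187 genes (84.5%, exact 95% interval 78.5 to 89.4%), and a far end peak in 43 (23.0%, 17.2 to 29.7%). In genes open at 1 end only, the same shares were 85.1% at the start and 23.2% at the far end. The midpoint of the widest start peak lay at a median of 205 bp from the bound, counted as positive inside the gene (quartiles -18 and 513.5 bp). That of the far end peak lay at a median of -224 bp, outside the gene, with wider quartiles of -812 and 597 bp. Far end peaks thus lay on both sides of the bound, with 79 midpoints inside the gene. A listed start of the gene itself lay in a peak in 168 of the 187 genes (89.8%), the same share as in genes open only at the start (89.8%), against 17.1% of genes open only at the far end. These shares are largely fixed by the way the classes were chosen, since a peak at the start defines them. All 14 such starts in genes open only at the far end lay over 1 kb inside both bounds. Starts listed in the promoter table for any gene lay within 1 kb of the far bound in 0 of the 187, which the isolation rule in part fixes. The far bound lay inside another annotated gene in 15 of 187. The nearest listed start of another gene was at a median of 31.7 kb from the far bound, against 28.6 kb in genes open only at the start. It was within 5 kb in 17 of 187 (9.09%) and in 164 of 2289 (7.16%).

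**Figure D3:**
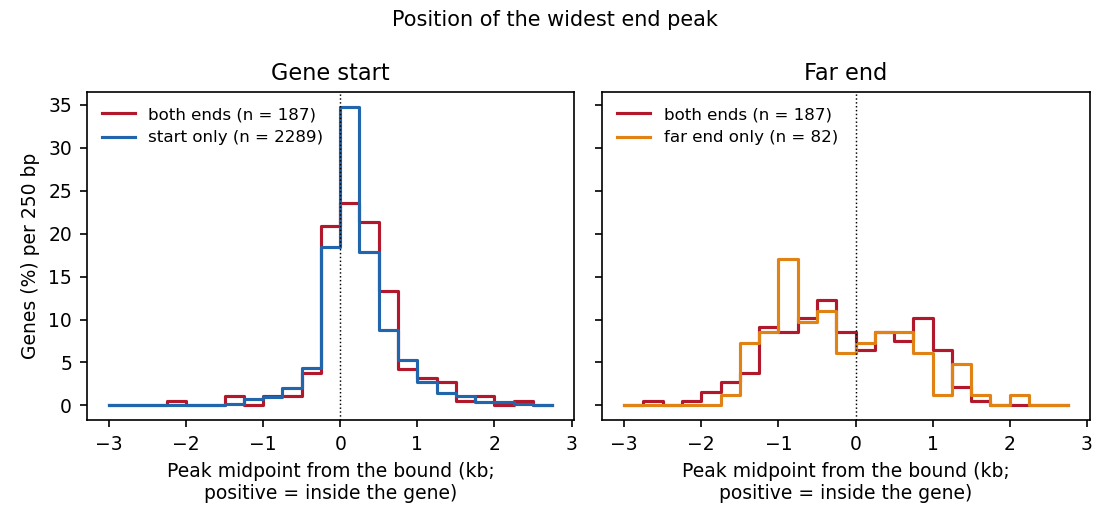
Midpoint of the widest end peak relative to the gene bound (x axis, kb, positive inside the gene) as the percentage of genes per 250 bp (y axis), at the start (left) and the far end (right). Genes open at both ends are set beside genes open at that end only, midpoints beyond 3 kb are not drawn, and start peaks gather just inside the bound while far end peaks spread over the window.

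The interior of these genes and the ground around them were not used by the rule. By median, both held more peaks than in genes open at 1 end or at neither. Interior peaks, with a midpoint inside the gene over 1 kb from both bounds, had a median density of 4.84 per 100 kb in genes open at both ends (quartiles 2.39 and 10.1), against 2.64 in genes open at 1 end and 1.23 in genes open at neither. With the end peaks themselves left out of the count, an alternative chosen after seeing the data, the medians were 4.67, 2.46 and 1.23. An interior peak was present in 82.9% of genes open at both ends, against 70.8% and 59.2%. The order held in all 4 length classes, with medians of 5.46 against 2.50 at 20 to 50 kb and 3.66 against 2.79 at 200 kb and over for both ends against 1 end. By strand, genes open at both ends had 4.68, genes open only at the start 2.50 and genes open only at the far end 3.10 interior peaks per 100 kb. An interior peak was present in 80.7%, 69.7% and 76.8% of them, so genes open only at the far end were close to genes open at both ends. At 20 to 50 kb the 52 genes open only at the far end had a median of 4.70, against 5.46 for both ends. At 50 to 100 kb the 16 such genes had 0.548, against 3.79.

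**Figure D4:**
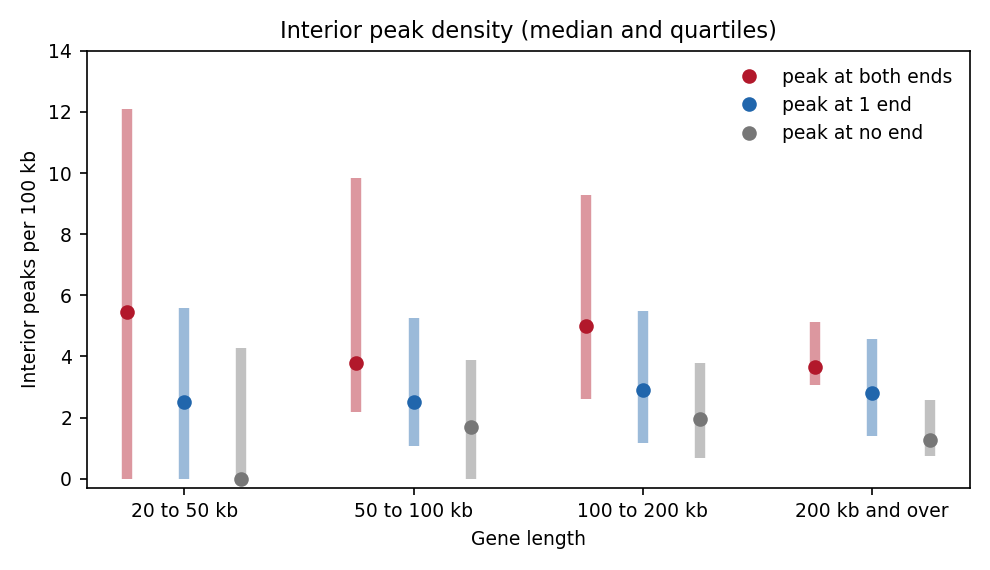
Interior peaks per 100 kb (y axis) in genes with a peak at both ends, at 1 end or at no end, by gene length (x axis). Points are medians and bars run between the quartiles, and genes open at both ends have the highest median in each of the 4 length classes.

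The flanks followed the same order. Between 1 and 50 kb outside the bounds, and with end peaks left out, the median density was 5.10 peaks per 100 kb for genes open at both ends, against 4.08 for genes open at 1 end and 2.04 for genes open at neither. The difference was also present far from the bound, in densities summed over genes. Such sums give more weight to genes with very dense flanks than medians do. With end peaks counted, flanks held 70.4 peaks per 100 kb at Zfp988, 61.2 at Gm21119 and 54.1 at Gm15319. The highest value in genes open only at the start was 58.2. How far such genes raise the summed values was not tested. At 20 to 50 kb outside the start the summed density was 6.68 per 100 kb for genes open at both ends, against 4.27 for genes open only at the start and 2.96 for genes open at neither. Outside the far end at 5 to 10 kb the values were 8.98, 4.86 and 3.43. Just inside the far end, at 2 to 5 kb, they were 6.42, 2.58 and 1.75, and genes open only at the far end had 7.32 there. Genes open only at the far end had dense surroundings at some distances and not at others. They had 3.98 at 20 to 50 kb outside the start and 4.63 at 5 to 10 kb outside the far end. Both values were near those of genes open only at the start. At 20 to 50 kb outside the far end they had 6.06, against 6.47 for both ends and 4.15 for start only. Inside the gene they exceeded genes open at both ends at 2 to 5 kb from the start (9.35 against 7.66). The same held at 5 to 10 kb from the far end (7.80 against 7.06). At 5 to 10 kb from the start they lay below (6.10 against 7.38). The part of the surroundings in the presence of a far end peak was not tested.

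**Figure D5:**
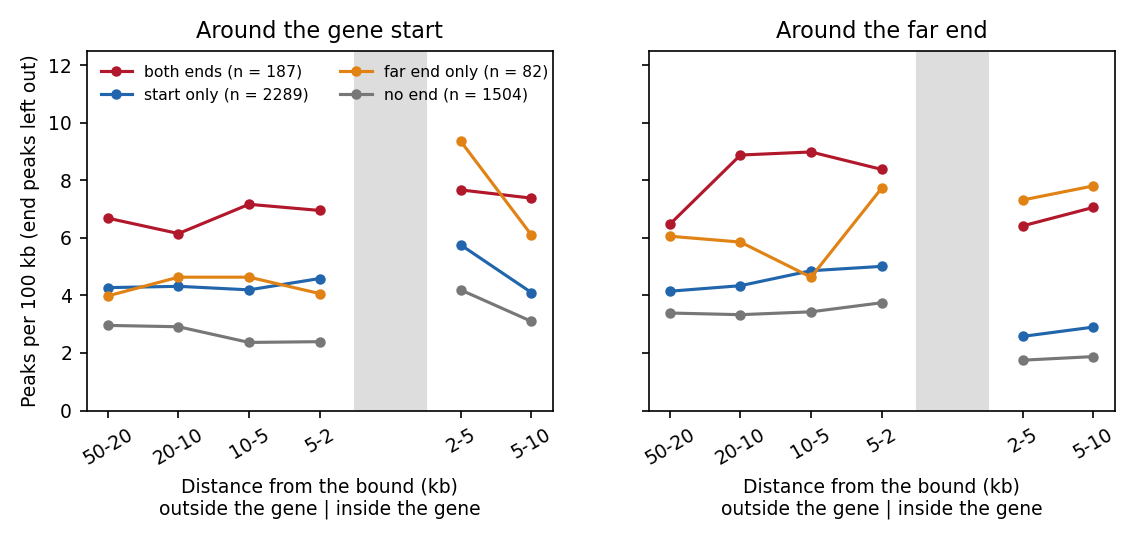
Summed peaks per 100 kb (y axis) by distance from the start (left) and from the far end (right), outside and inside the gene (x axis, kb), for the 4 classes of genes of known strand. The grey band covers the ground within 2 kb of the bound, where the rule acts. Genes open at both ends lie above genes open only at the start and above genes open at neither end at every distance shown. Genes open only at the far end lie above genes open at both ends at some distances inside the gene.

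The promoters of genes open at both ends were much like those of genes open only at the start. The ratio of observed to expected CpG pairs in the 250 bases before the start, a measure that is high in CpG islands, had a median of 0.722 in genes open at both ends, against 0.735 in genes open only at the start, 0.321 in genes open only at the far end, 0.339 in genes open at neither and 0.379 over all 27025 promoters. It was 0.6 or over in 124 of 187 genes open at both ends (66.3%) and in 69.5% of genes open only at the start. A GC box was found in 58.8% of promoters of genes open at both ends, against 65.5% for start only and 33.0% over all promoters. A CCAAT box was found in 32.6% against 34.6% and 34.5%, and a TATA box (TATAAA) in 6.42% against 5.77%, and in 3507 of all 27025 promoters. AP-1 (TGANTCA) was found in 5.35% against 4.33% and 6.85%, and forkhead (TGTTTAC) in 5 of 187 promoters (2.67%) against 2.10% and 3.06%. NRF1 (GCGC and TGCGC with any 1 base between) was found in 5.35% against 7.65% and 3.87%, and CTCF (CCA, AG and GGC with any 2 bases between each) in 3.21% against 2.88% and 2.06%. NFI (TTGGC and GCCAA with any 5 bases between) was found in 0 of 187, and in 0.0407% of all promoters. All 8 motifs were searched on both strands and matches of different motifs may share bases. Start peaks were the wider in 102 of 124 genes with a CpG ratio of 0.6 or over and in 50 of 63 genes under it, with start medians of 1574 and 1450 bp and far end medians of 604.5 and 619 bp.

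Fixed gene lists held few genes open at both ends, and their share was near the background. The 6 lists of skin, signalling and general cell genes had 131 long isolated members, of which 7 were open at both ends (5.34%, against 4.75% over all long isolated genes), 99 at 1 end and 25 at neither. The 7 lists of other cell types had 97, of which 2 were open at both ends (2.06%), 30 at 1 end and 65 at neither. At least 1 end was open in 80.9% of the first and 33.0% of the second, beside 62.8% over all long isolated genes. These pooled shares did not hold for every list. In the first set, chromatin and transcription regulators were at 62.5%, near that background, and each of the other lists lay above it. In the second set, dermal fibroblast genes were at 68.8%, above the background. Each of the other lists there lay below it, the highest being hepatocyte genes at 46.7%. By list, the counts at both ends were 1 of 13 for hair follicle stem cell genes, 1 of 18 for basal keratinocyte and adhesion genes and 1 of 34 for growth factor and niche signalling. They were 0 of 24 for chromatin and transcription regulators and 2 of 21 for ubiquitin, trafficking and general functions. Among the other cell types they were 1 of 17 for immune cells, 1 of 10 for endothelium, and 0 for dermal fibroblasts (of 16), melanocytes (of 9), neurons (of 23), skeletal muscle (of 7) and hepatocytes (of 15). These small counts do not set any list apart from the background.

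The stem cell gene among them was Cd34, which encodes the surface sialomucin used to sort the cells. It lies on chromosome 1 from 194938821 to 194961292 on the plus strand (mm10). A peak of 1480 bp covered its start, and a peak of 1041 bp from 194962145 to 194963185 lay just beyond the far end without touching the bound. It had 1 interior peak. Dsc3, the desmosomal cadherin desmocollin 3 of basal epidermis, had peaks of 2251 bp at its lower-coordinate end and 3082 bp at its upper-coordinate end, so both of its ends were wide. Met, the receptor of hepatocyte growth factor, had a start peak of 2547 bp and a far end peak of 1207 bp that covered the bound, with 12 interior peaks over 111 kb. Myo10, an unconventional myosin of filopodia, had a far end peak of 894 bp, which lay inside the gene, and a start peak of 5080 bp.

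The other list members had narrow far end peaks. Fbxw11, an F-box subunit of a ubiquitin ligase, had 2 peaks at each end, the widest of 1432 bp at the start and 397 bp at the far end. Clint1, a clathrin adaptor, had peaks of 1283 bp at its lower-coordinate end and 311 bp at the other. The immune cell gene Prkcq, the kinase PKC theta of T cells, had 774 bp at the start and 299 bp at the far end, and neither peak covered the bound. The endothelial gene Flt4, the receptor VEGFR3, had only 256 bp at the start and 228 bp at the far end. Both genes of other cell types therefore had narrow peaks at both ends, below the start median of 1544 bp and the far end median of 615 bp.

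Grouped by what their products are known to do, the genes open at both ends covered many functions. These groups were drawn up after the members were known, cover 102 of the 245 genes and carry no test. The 15 receptors, ligands and their regulators included Epha2 and Efna5, an ephrin receptor and an ephrin ligand, the cytokine receptors Il4ra and Il17ra, and the WNT pathway genes Wls and Rnf43. Wls, which carries WNT proteins to the surface, had 2789 bp at the start and 445 bp at the far end. Rnf43, a ubiquitin ligase that removes WNT receptors, went the other way with 813 bp at the start and 1329 bp at the far end. The median in this group was 2048 bp at the start and 494 bp at the far end over 13 genes of known strand. The 15 kinases and relays inside the cell, such as Src, Gab1, Mapkapk2, the G1 kinase Cdk6 and Edaradd, the adaptor of the ectodysplasin receptor, had medians of 2019.5 and 365 bp over 14 genes. Src had 2023 bp at the start and 221 bp at the far end, whereas Edaradd had wide peaks at both ends, 1883 bp at the start and 2575 bp at the far end.

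Adhesion and matrix genes had the densest interiors of the 7 groups. Their 13 members had a median of 12.0 interior peaks per 100 kb, beside 4.84 over all 245. Tnc, the matrix protein tenascin C, had 17 interior peaks with 1086 bp at the start and 842 bp at the far end. Npnt, the bulge basement membrane protein nephronectin, had 3000 bp at the start and 759 bp at the far end. Serpinb5, the epithelial serpin maspin, had 3114 bp at the start and 1984 bp at the far end, both covering their bound. The 17 transcription factors and chromatin proteins, among them Nfkb1, Klf13, Casz1, Trp73, Hdac2 and Dnmt3b, had medians of 1653 bp at the start and 743 bp at the far end over 13 genes. Klf13 had 4230 and 1767 bp, and Hdac2, the histone deacetylase, 2023 and 1159 bp with no interior peak. Trp73, the p53 family gene of p73, had narrow peaks of 501 bp at the start and 545 bp at the far end. The 12 cytoskeleton and cell division genes had medians of 1156 and 685 bp, the 12 membrane traffic genes 1544 and 305 bp. The 18 metabolic enzyme genes had 1551 and 922 bp, and among their 15 genes of known strand the start peak was the wider in 8.

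The widest pair of end peaks belonged to Emp1, which encodes an epithelial membrane protein of the tetraspan type, on chromosome 6 from 135362550 to 135383173. Its start peak spanned 15036 bp from 135362053 to 135377088 and its far end peak 9624 bp from 135377365 to 135386988, with 276 bp between them. Peaks covered 98.7% of the gene, which is 20.6 kb long. Both peaks were the widest at their end among the 187 genes. Zdhhc18, a palmitoyltransferase gene, was second at the far end with 7684 bp against 1848 bp at its start, and most of that far end peak lay beyond the gene, from 133598116 to 133605799 on chromosome 4. Zswim4, a zinc finger SWIM gene, had 5786 bp at the far end and 1247 bp at the start. These last 2 and Irak2, Nmnat3, Prune2, Thada, Tmc3 and Zfp985 were the 8 genes whose far end peak was at least 2 times as wide, named after their values were seen. In Nmnat3 and Prune2 the start peak was only 205 bp. The nearest listed transcription start of Nmnat3 was 9137 bp from that bound.

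Several genes with wide or many end peaks were covered by peaks over most of their length. Peaks covered 50% or more of the gene in 9 of the 245, which were Emp1 on chromosome 6, the splicing factor gene Cwc22 on chromosome 2, Gm38510, C130026I21Rik and Sp110 on chromosome 1, and 4930467E23Rik, 9530057J20Rik, Gm15319 and Gm21119 on chromosome 8. Cwc22 had 8458 bp at the start and 4797 bp at the far end, and C130026I21Rik 10649 and 3104 bp. Gm15319 had 7366 and 5865 bp, Gm21119 3715 and 5054 bp with 4 peaks at the far end, Sp110 5739 and 1063 bp, and 4930467E23Rik 3756 and 1132 bp with 2 peaks at each end. The nearest listed transcription start was 25265 bp from the start bound in 4930467E23Rik, 12317 bp in C130026I21Rik and 6959 bp in Sp110. As shown above, the promoters of Gm15319 and Gm21119 were identical over 250 bases, so reads that fall wholly within them cannot be assigned to either copy. How the submitters treated such reads was not stated in the labels, and the peaks at these genes are uncertain. The promoter of 4930467E23Rik had the same G and C share (52%) and CpG ratio (0.118) as those of Gm15319 and Gm21119. Whether its bases are also identical was not examined, so its peaks carry the same doubt. The 4 genes on chromosome 8 lay together between 19704311 and 20646749, with 40.2 to 63.4 interior peaks per 100 kb. On chromosome 4, Rex2, Zfp991, Zfp988 and Zfp985 lay between 146973610 and 147585201. Zfp992, on the same chromosome with 2 peaks at each end, had 81.5 interior peaks per 100 kb, the highest density of all 245 genes. Whether such coverage and density reflect open chromatin, at any of the genes named here, was not tested. The list holds no score or read count for it.

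The most interior peaks by number were in Gm38510 (54), Pdzd2 (41), Aopep (36), Nfkb1 (33) and Rex2 (32). Nfkb1, the p105 and p50 subunit gene of NF-kappaB, had peaks of 530 bp at its lower-coordinate end and 895 bp at its upper-coordinate end. Pdzd2, a PDZ domain protein gene of 380 kb, had 2058 bp at the start and 600 bp at the far end, and Aopep, an aminopeptidase gene, 723 and 715 bp. Rex2 had 474 bp at the start and 330 bp at the far end, and its nearest listed transcription start was 48240 bp from the start bound. Gm38510 had 3 peaks at its lower-coordinate end, the widest of 984 bp, and 1 of 2854 bp at the upper. In 42 of the 245 genes no interior peak was found.

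The longest genes open at both ends had narrow peaks at 1 end at least, except 1. Sgcz, a sarcoglycan gene of 1144 kb, had peaks of 323 and 288 bp and 4 interior peaks. Ptprg, a receptor tyrosine phosphatase gene of 689 kb, had 2847 bp at the start and 200 bp, the smallest width, at the far end. Ank2, an ankyrin gene, had 593 bp at the start and 285 bp at the far end, and Slc9a9, a sodium and proton exchanger gene, 2225 and 352 bp. The nearest listed transcription start of Ank2 was 1232 bp from its start bound. St6galnac3, a sialyltransferase gene of 527 kb, was the exception with 1001 bp at the start and 1044 bp at the far end.

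Genes just inside and just outside the limits of the rule differed by few bases. The shortest genes included were Gm21814 (20082 bp), Sft2d2 (20182 bp) and Pglyrp3 (20196 bp), and the longest left out were Mtch2 (19721 bp), Hr (19493 bp) and Elac1 (19482 bp). The nearest other gene bound was 2012 bp away at Rnf43 and Thada and 2021 bp at Zswim4, whereas Impa2 (1993 bp), Ttpa (1965 bp) and Med26 (1941 bp) were left out. A peak shared only 4 bases with an end window at Kirrel and 15 at Gm6351 and Pi4k2b. A peak missed an end window by 27 bases at Cd2ap, 31 at Asrgl1 and 34 at Tmem168.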

How the data were processed

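The labels describe ATAC-seq of sorted hair follicle stem cells of 2 genotypes, each 1 library sequenced in 2 runs. The tools named in the submitters' processing notes are Bowtie2, MACS2 and bedtools, with the build mm10. Versions, settings, filters on reads, a shift for the Tn5 cut and whether reads were pooled before peak calling: none of this is given in the sources used here. What the authors deposited is 1 list of peak positions without score or count, so depth is unknown and a missing peak can mean low depth. Positions are printed counting from 1. No per-sample columns were left unused (0).

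Gene bounds came from RefSeq on GRCm38.p6, the assembly that mm10 is made from, and strands and starts from a RefSeq promoter table of the same assembly. Bounds span all transcripts of a gene, and exons and untranslated regions were not used here. An end peak overlapped the window of 1 kb around a bound by at least 1 base, and where several did, the widest gave the width and position. Densities divide peaks by the ground counted. Shares have exact Clopper-Pearson 95% intervals (scipy 1.17.1, Python 3.11.15). No test was made, because 1 list has no replicates. The members, gene lists and alternatives were chosen with earlier results of these data known. The 13 gene lists held 458 entries; the count of 1 list and 1 of its genes are not reported here. Named genes were the list members open at both ends, the 5 longest, the 5 with the widest start peak, far end peak, most end peaks or most interior peaks, and 3 on either side of each limit; the role groups and genes named from them were added after values were seen. The counting code was checked on made-up input with known answers before use. Alternatives covered the window, the overlap rule, gene length, isolation and narrow peaks.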

Additional observations from a re-analysis of the deposited data

How the results depend on the processing

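The start peak stayed wider by median than the far end peak, and interior density higher at both open ends than at 1, under all 10 alternative settings of window, overlap, length, isolation and peak width. Of 62 alternative values, 41 stayed within a set tolerance, which was 1.5 times the reported value for counts and the 95% interval of the reported value for shares and medians. Counts within it could still differ clearly, with 342 genes at a minimum length of 10 kb and 333 with isolation from protein-coding genes only, against 245. The other 21 lay outside it; the cause was not tested beyond what each setting changes by construction. Counts and shares of genes open at both ends were 143 (2.77%) with windows of 500 bp, 468 (9.07%) with 2 kb, 156 (3.02%) when the peak midpoint had to lie in the window, 623 (6.51%) with no isolation filter and 121 (2.35%) without peaks under the median width. Only the count moved with a minimum length of 50 kb (122) and with isolation of 5 kb (154). The far end median width, 615 bp, was 534 bp by midpoint, 861 bp with no isolation filter and 1100 bp without peaks under the median width. Interior density of genes open at both ends, 4.84 per 100 kb, was 3.81 by midpoint and 2.99 without peaks under the median width. That of genes open at 1 end, 2.64, was 2.23 with genes of 10 kb and over, 2.47 without peaks of 200 bp, 0.799 without peaks under the median width and 2.46 with end peaks left out of the interior count.

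No paired analysis was possible because the single list carries no sample or genotype. Depth limits every absence of a peak. Strand was unknown for 58 of the 245 genes.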

Other observations

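Genes open at both ends were in places close to one another. A total of 41 of the 245 lay within 500 kb of another, in 17 groups. The same count was not made for other long isolated genes. It therefore does not show that these genes lie closer together than others do. Besides the groups on chromosomes 1, 4 and 8 given above, examples are Met and the actin capping protein gene Capza2 on chromosome 6, and Rad54l2, Mapkapk3 and Gnai2 on chromosome 9 between 106688080 and 107635391. Prkcq and the interleukin 15 receptor gene Il15ra lay together on chromosome 2, and Cdcp1 and Lztfl1 on chromosome 9. These examples were chosen after their positions were seen.

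A curated RefSeq transcript was listed for 242 of 245 genes open at both ends (98.8%), 99.4% of genes open at 1 end and 96.2% of genes open at neither. The median number of transcripts was 3, 4 and 4. More than 1 start was listed for 34 of the 187 genes of known strand that were open at both ends, and a start within 1 kb of the gene bound for 173.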
